A study of Arabidopsis thaliana with 3 samples.

Results

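The circadian clock of Arabidopsis thaliana is built from transcription factors that switch one another on and off in a fixed daily order. The 10 core genes examined here were matched by locus identifier, and each had a single non-control probe, so that 10 probes stood for 10 of the 25665 loci on the array. They are CCA1 (AT2G46830), LHY (AT1G01060), PRR9 (AT2G46790), PRR7 (AT5G02810), PRR5 (AT5G24470), TOC1 (AT5G61380), GI (AT1G22770), ELF3 (AT2G25930), ELF4 (AT2G40080) and LUX (AT3G46640). RNA from whole seedlings carrying 35S:AtIBH1-SRDX was compared with RNA from wild-type seedlings, both in the Col-0 background and both 10 days old. IBH1 is a helix-loop-helix protein that restrains cell elongation, SRDX is a short plant repression domain, and the 35S promoter is active in most tissues, so the fusion is not confined to cells in which IBH1 is normally made. Seedlings of both genotypes were kept at 23 °C on agar medium with 1% sucrose, in cycles of 16 h light and 8 h darkness. The sources used here give neither the hour of harvest nor the number of transgenic lines or of seedlings per sample.

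The genes differ in the time of day at which they are usually expressed. CCA1 and LHY encode MYB-like factors that accumulate around dawn and repress the genes of the evening. PRR9, PRR7, PRR5 and TOC1 encode pseudo-response regulators that follow one another from morning to dusk and repress CCA1 and LHY in turn. GI encodes a protein of the late afternoon that stabilises the F-box protein ZTL, and ELF3, ELF4 and LUX form the evening complex, a repressor that among other targets restrains growth genes during the night. The clock thereby sets the hours at which seedlings elongate, which is the process that IBH1 restrains.

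Each of the 3 arrays was read in 2 colours and held both genotypes of 1 replicate, with the dyes exchanged on array 2. Between 58.8% and 63.5% of spots were well above background in a genotype, and 0 were saturated. Tests covered 19875 loci (77.4%), at a precision set by the small number of arrays. All log2 ratios are IBH1-SRDX over wild type, given as the mean ± SE of limma, which moderates the variance of a gene toward that of all genes, and a transcript is called at a Benjamini-Hochberg adjusted p below 0.05 over all tested loci. For 1 gene alone, an exact two-sided sign-flip test over 3 arrays gives no p below 0.25, so each call rests on the pooled spread. The probe for IBH1 itself stood at -0.71 ± 0.09, and the probe for SUP, from which the SRDX domain derives, at 8.12 ± 0.11. Where the IBH1 probe lies in its transcript is unknown here, so every direction below rests on the labels.

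Of the 10 core genes, 7 were well above background in both genotypes on all 3 arrays and were tested, and 3 were not. PRR5 rose 2.36-fold and TOC1 1.28-fold in IBH1-SRDX, 0 members fell, and 5 were not called. Over all tested loci 38.4% were called, 18.6% as higher and 19.9% as lower, so 2 called genes of 7 (28.6%) is no more than the share of the array as a whole. The log2 ratios of the tested members ran from -0.12 to 1.24 with a median of 0.27, against a median of 0.00 over all loci, and 6 of the 7 lay above 0, against 50% of all loci. The 18.6% and 19.9% stand for 3687 higher and 3949 lower transcripts, a share of 48.3% higher among the calls. That share was 28% with the deposited series table, and 37.3% when local backgrounds marked as outliers were kept.

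**Figure D1:**
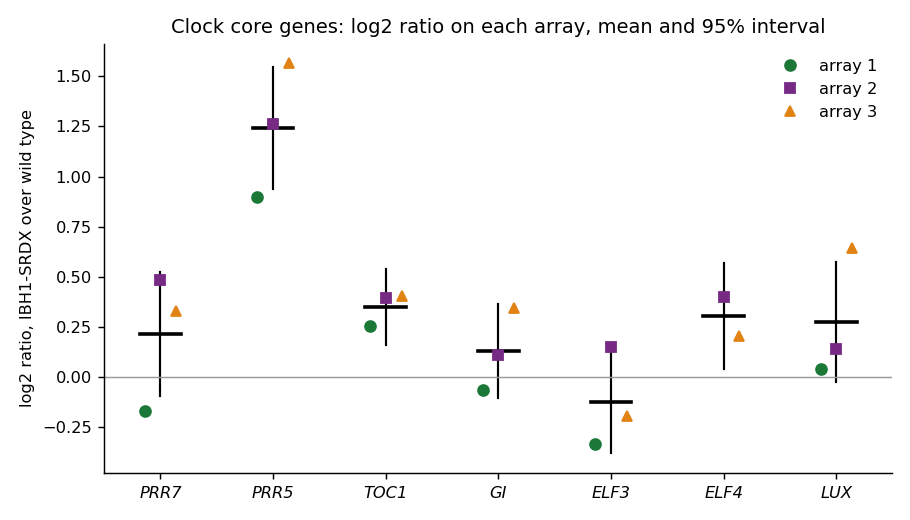
Log2 ratio of IBH1-SRDX over wild type for the 7 tested core genes (vertical axis), with 1 point for each array, a bar at the mean and a line for the 95% interval of limma. PRR5 lies between 0.90 and 1.56 on the 3 arrays and is the highest gene on each, while PRR7, GI and ELF3 have arrays on both sides of 0.

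The dawn genes gave almost no signal in either genotype. CCA1, whose product represses evening genes by day, had median spot signals of 84, 124 and 94.5 array units in IBH1-SRDX on arrays 1, 2 and 3, against 113, 88 and 96 in wild type. Its local backgrounds lay between 51.5 and 58 units. The genotypes overlapped. Before normalisation the genotype labelled with Cy5 was the brighter one on each of the 3 arrays. The same held for PRR7, TOC1, GI, ELF3, ELF4 and LUX. After normalisation CCA1 had 95.3 units in IBH1-SRDX (Cy3) and 86.2 units in wild type (Cy5) on array 3. Feature Extraction marked CCA1 as well above background in IBH1-SRDX on arrays 2 and 3 and in wild type on arrays 1 and 3, so it passed in neither genotype on all 3 arrays. Its log2 ratios of -0.13, 0.21 and 0.15 (mean 0.07, SD 0.18) are given without a test.

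LHY, the closest relative of CCA1, was well above background on 0 of 3 arrays in each genotype. Its spot signals were 75.5, 80 and 89 units in IBH1-SRDX, against 73, 84 and 74 units in wild type, and the genotypes overlapped. PRR9, the earliest of the pseudo-response regulators, was likewise well above background on 0 of 3 arrays in each genotype, at 69, 80 and 82 units in IBH1-SRDX against 72, 78.5 and 62 units in wild type. The 153 negative control spots of each array give a scale for these values. CCA1 was brighter than at least 98% of them in every channel, LHY than at least 93.5%, and PRR9 than between 22.2% and 95.4%. With neither genotype well above background on any array, no fold is given for LHY or PRR9. Differences between the genotypes were not detectable at these signals.

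**Figure D2:**
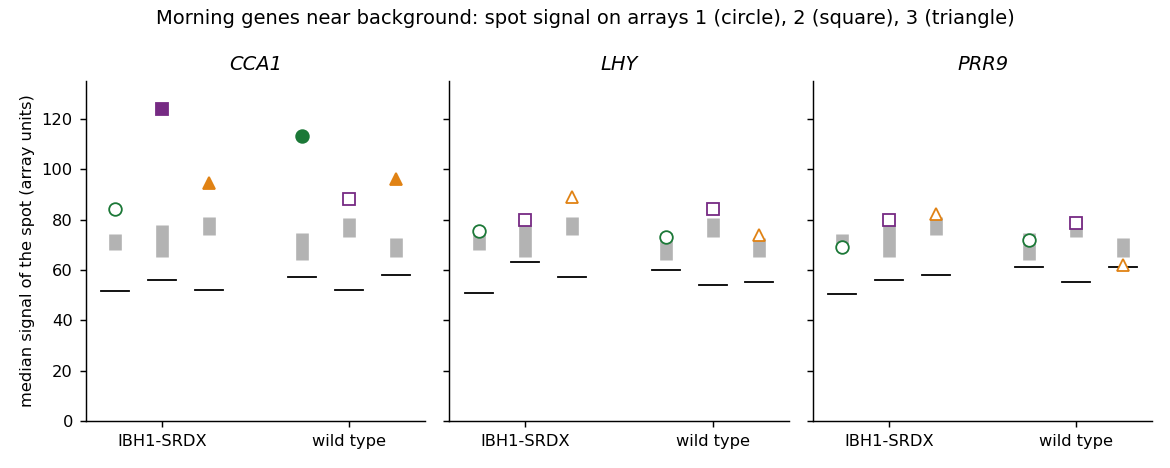
Median spot signal (array units) of CCA1, LHY and PRR9 in IBH1-SRDX and in wild type, 1 symbol for each array, filled where the spot was well above background. Black bars are local backgrounds and grey bars run from the median to the 95th percentile of the 153 negative control spots in the same channel, where LHY and PRR9 lie at or close to the grey bars and CCA1 lies above them.

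Among the later pseudo-response regulators, PRR5 showed the largest difference of the core genes. PRR5 is a repressor of the afternoon that also directs TOC1 into the nucleus. Its normalised signal was 1428, 1803 and 2172 units in IBH1-SRDX on arrays 1, 2 and 3, against 767, 753 and 735 units in wild type. The lowest IBH1-SRDX value was well above the highest wild-type value, and the wild-type values lay close together. The log2 ratios were 0.90, 1.26 and 1.56, a mean of 1.24 ± 0.13 (SD 0.33, n = 3) with a 95% interval from 0.94 to 1.54 and an adjusted p of 0.000602 in limma. Of all tested loci, 2.04% had a higher log2 ratio.

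PRR5 was also the highest of the measured core genes on each array. Differences between 2 genes on the same array do not depend on how arrays are scaled to each other. PRR5 exceeded TOC1 by 0.64, 0.86 and 1.16 on the log2 ratio scale, LUX by 0.86, 1.12 and 0.92, and GI by 0.96, 1.15 and 1.22. It exceeded PRR7, its closest neighbour in the daily order, by 1.06, 0.78 and 1.24. These differences are descriptive, and PRR5 was singled out for them after its values were seen.

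TOC1, the pseudo-response regulator of dusk and a direct repressor of CCA1, was slightly higher in IBH1-SRDX. Its normalised signal was 2032, 2189 and 1979 units there, against 1705, 1664 and 1493 units in wild type, and the genotypes did not overlap. The log2 ratios of 0.25, 0.40 and 0.41 gave a mean of 0.35 ± 0.08 with a 95% interval from 0.16 to 0.54 (adjusted p = 0.013, limma). The call ended under 4 of 13 other settings. It was lost with local background outliers kept (0.28, adjusted p = 0.117), with median centring (0.24, adjusted p = 0.951), with the deposited series table (0.20, adjusted p = 0.102) and without replicate 3 (0.32, adjusted p = 0.0591), all values from limma. Under median centring the SE was 0.32 for TOC1, PRR5 and GI alike. The medians of all loci there were -0.35, 0.45 and -0.40 on arrays 1, 2 and 3, with the dyes exchanged on array 2. The series table carries an array-wide shift of -0.15 in the median of all loci, relative to which TOC1 stood at 0.34 and PRR5 at 1.32.

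PRR7, a repressor active around midday, was not called. Its normalised signal was 495, 701 and 645 units in IBH1-SRDX, against 555, 502 and 514 units in wild type, and the genotypes overlapped. On array 1 PRR7 was lower in IBH1-SRDX and on arrays 2 and 3 higher, with log2 ratios of -0.17, 0.48 and 0.33. The mean of 0.22 ± 0.13 had a 95% interval from -0.09 to 0.52 (adjusted p = 0.231, limma), which leaves room for a rise to 1.44-fold and a fall to 0.94-fold. The PRR7 ratio was 0.41 without replicate 1 (adjusted p = 0.0506, limma) and 0.08 without replicate 2.

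**Figure D3:**
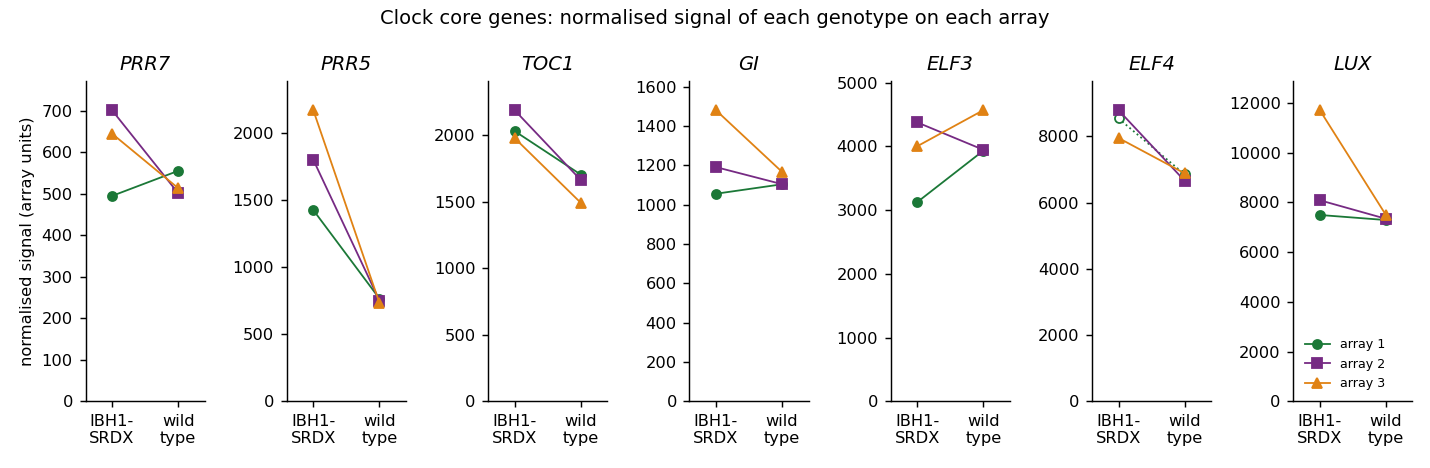
Normalised signal (array units, each panel from 0) of the 7 tested core genes in IBH1-SRDX and in wild type, with a line joining the genotypes on each array. All PRR5 points of IBH1-SRDX (1428 to 2172 units) lie above those of wild type (735 to 767 units). The ELF4 value of array 1, drawn open and dotted, came from a spot marked as an outlier and was left out of the test.

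GI, which links the clock to flowering and to the stability of ZTL, was not called either. Its normalised signal was 1056, 1191 and 1481 units in IBH1-SRDX, against 1104, 1104 and 1167 units in wild type. The genotypes overlapped, since the IBH1-SRDX value of array 1 lay below those of wild type. The log2 ratios were -0.06, 0.11 and 0.34, with a mean of 0.13 ± 0.10 and a 95% interval from -0.10 to 0.36 (adjusted p = 0.337, limma). The GI ratio was 0.23 without replicate 1 and 0.02 without replicate 3.

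The evening complex showed no called member in the fit as designed. LUX, the MYB-like factor that brings the complex to DNA (listed in the reference as PCL1), had 7496, 8088 and 11711 units in IBH1-SRDX, against 7292, 7342 and 7491 units in wild type. The genotypes did not overlap by a narrow margin, and the IBH1-SRDX value of array 3 stood far above the other two. Its log2 ratios of 0.04, 0.14 and 0.64 gave 0.27 ± 0.13 with a 95% interval from -0.02 to 0.57 (adjusted p = 0.128, limma). Without replicate 3 the LUX ratio was 0.09.

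ELF4, a small protein of the complex, was measured in the test on arrays 2 and 3. There it had 8790 and 7950 units in IBH1-SRDX, against 6658 and 6883 units in wild type, and the genotypes did not overlap. The log2 ratios of 0.40 and 0.21 gave 0.30 ± 0.11 (n = 2), with a 95% interval from 0.04 to 0.57 and an adjusted p of 0.0705 in limma. On array 1 the spot of ELF4 was marked as an outlier, and its normalised signals were 8540 units in IBH1-SRDX and 6851 units in wild type. With such spots kept, a setting chosen after seeing the data, ELF4 was called at 0.31 ± 0.08 (adjusted p = 0.0227, limma). The ELF4 call therefore turns on a single spot.

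ELF3, the scaffold of the complex, was the one tested member below 0. It had 3126, 4378 and 4003 units in IBH1-SRDX, against 3934, 3947 and 4569 units in wild type, with overlapping genotypes. IBH1-SRDX was lower on arrays 1 and 3, where it carried Cy3, and higher on array 2, where it carried Cy5. With only 1 array of exchanged dyes, dye and replicate cannot be told apart. The log2 ratios of -0.33, 0.15 and -0.19 gave -0.12 ± 0.11, with a 95% interval from -0.38 to 0.13 (adjusted p = 0.398, limma). Without replicate 2, which removes the array with exchanged dyes, ELF3 was called as lower at -0.26 ± 0.08 (adjusted p = 0.0469, limma), and with a dye term in the model it stood at -0.06 and was not called (adjusted p = 0.537, limma).

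Among the 6 core genes measured on all 3 arrays, the normalised signals of the genotypes did not overlap for 3, namely PRR5, TOC1 and LUX, each higher in IBH1-SRDX. Over all loci measured on 3 arrays, 54% were separated in either direction and 26.7% with IBH1-SRDX higher. Spread between arrays was larger in IBH1-SRDX than in wild type for 6 of the 7 tested members. For PRR5 the SD of the log2 normalised signal was 0.30 in IBH1-SRDX and 0.03 in wild type, for LUX 0.34 and 0.02, and for GI 0.25 and 0.05. TOC1 was the exception, at 0.08 in IBH1-SRDX and 0.10 in wild type. The same direction held for 70.8% of all tested loci, with median SDs of 0.12 in IBH1-SRDX and 0.07 in wild type.

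The arrays differed in how far the core genes moved. The median log2 ratio of the measured members was -0.01, 0.40 and 0.34 on arrays 1, 2 and 3, with 3 of 6, 7 of 7 and 6 of 7 members above 0. The gene missing on array 1 is ELF4, whose outlier spot gave 8540 units in IBH1-SRDX and 6851 units in wild type, so the sets differ. The medians of all loci were between -0.01 and 0.01 on the same arrays.

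Genes close to the core clock were described through 4 lists of 61 genes, of which 58 were tested, 15 were higher, 8 lower and 35 not called. The 39.7% called is near the 38.4% of all loci. The count of 23 called genes was 13 without replicate 1 and 14 without replicate 3. With outlier local backgrounds kept it was 6, namely RVE2, CHE, CRY1, GBSS1, COR28 and CAT3, and with median centring it was 2, namely GBSS1 and COL1.

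One list held MYB-like factors related to CCA1 and their LNK co-activators, which act mainly in the morning. Of 12 genes, 10 were tested, 4 rose, 1 fell and 5 were not called, with a median log2 ratio of 0.23. The share called was 50%, against 38.4% over all loci. Without replicate 3 the list had 2 higher and 2 lower genes. RVE5 rose by 0.67 ± 0.09, with 489, 495 and 536 units in IBH1-SRDX against 351, 310 and 298 units in wild type. RVE4, a relative of the evening-gene activator RVE8, rose by 0.45 ± 0.09. RVE7 was called at 0.39 ± 0.09 but not without replicate 3. LNK1 was called at 0.25 ± 0.08, and that call ended when any 1 of the 3 replicates was left out. Without replicate 3 the LNK1 ratio stayed at 0.25 while its SE rose to 0.13. RVE2, another morning MYB-like factor, fell by 0.74 ± 0.08 with 1030, 972 and 1071 units in IBH1-SRDX against 1773, 1542 and 1838 units in wild type. The genotypes did not overlap for any of the called genes of this list, as for 54% of all loci measured on 3 arrays. RVE5 and RVE2 went opposite ways. Adjusted p in limma lay between 0.000639 for RVE2 and 0.0453 for LNK1.

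Of 19 other clock proteins 26.3% were called, against 38.4% over all loci. In this list 3 rose, 2 fell and 14 were not called, with a median of 0.12. Without replicates 1, 2 and 3 in turn, 0, 6 and 1 of these genes were called as higher and 1, 3 and 1 as lower. CHE, a TCP factor that binds the CCA1 promoter, fell by 0.70 ± 0.08 (adjusted p = 0.00105, limma). Its normalised signals were 6160, 6976 and 7640 units in IBH1-SRDX, against 10690, 11660 and 11320 units in wild type, without overlap. LWD1, a WD-repeat protein that helps activate CCA1 and PRR genes, was called at 0.54 ± 0.15, with 0.69, 0.08 and 0.84 on the arrays, and the call ended without replicate 1 (0.46, adjusted p = 0.11, limma). LKP2, a blue-light F-box protein, was called at 0.31 ± 0.10, CKB4, a casein kinase subunit, at 0.29 ± 0.09 and TIC at -0.25 ± 0.08. Each of these calls ended without replicate 1 and without replicate 3, and that of LKP2 also without replicate 2. ZTL, the F-box protein that targets PRR5 and TOC1 for degradation, stood at 0.28 ± 0.10 and was not called (adjusted p = 0.0559, limma). ZTL is named here after its values were seen.

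Of 13 genes of light input 2 rose, 2 fell and 9 were not called, with a median of -0.01. Called genes made up 30.8%, against 38.4% over all loci. HY5, a bZIP factor of light responses, was called at 0.48 ± 0.10 and SPA1, a partner of COP1, at 0.28 ± 0.08. The blue-light receptor gene CRY1 was called as lower at -0.42 ± 0.08 and the phytochrome gene PHYC at -0.29 ± 0.09. Adjusted p in limma lay between 0.00578 for CRY1 and 0.0468 for PHYC. The calls of CRY1, PHYC and SPA1 ended without replicate 1, and those of PHYC and SPA1 also without replicate 3.

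Clock outputs held the largest differences among these lists. Of 17 genes, 16 were tested, 6 rose, 3 fell and 7 were not called, with a median of 0.15. The share called was 56.2%, against 38.4% over all loci. GBSS1, which makes amylose and whose transcript is regulated by CCA1 and LHY, had 2626, 2672 and 3031 units in IBH1-SRDX, against 327, 347 and 340 units in wild type. The groups lay far apart on every array, at a log2 ratio of 3.04 ± 0.08 or 8.2-fold (adjusted p = 1.22e-05, limma). COL1, a CONSTANS-like B-box gene with a morning rhythm, had 424, 572 and 313 units in IBH1-SRDX against 158, 179 and 159 units in wild type, and rose by 1.36 ± 0.13 (0.93 and no call with outlier local backgrounds kept). COR28, an evening gene that feeds back on PRR5 and TOC1, rose by 0.81 ± 0.13.

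CAT3, an evening catalase gene, was called at 0.98 ± 0.10 on 2 arrays, but its probes disagree. The brighter probe gave 1.00 and 0.95 on arrays 1 and 3, while the other gave 0.09, 0.12 and -0.08 on arrays 1, 2 and 3. CO, the flowering regulator, fell by 0.42 ± 0.08, COL2 by 0.40 ± 0.09 and CDF1, a repressor of CO, by 0.25 ± 0.08. Adjusted p in limma lay between 0.00827 for CO and 0.0391 for CDF1, whose call ended without any of the 3 replicates. The CONSTANS-like neighbours CO and COL1 thus went opposite ways.

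**Figure D4:**
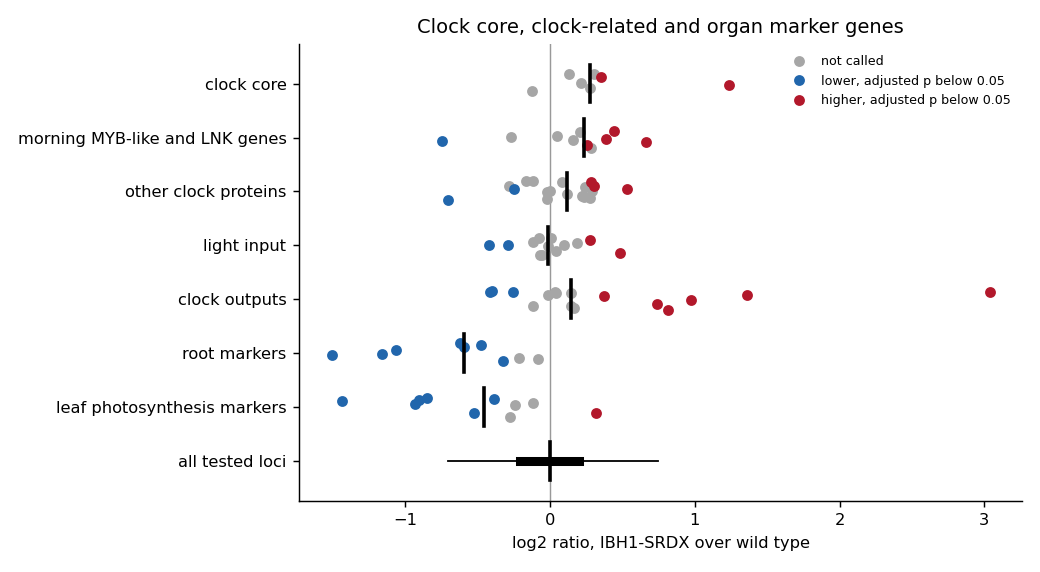
Log2 ratio of IBH1-SRDX over wild type for the tested genes of each list, 1 point a gene, coloured by call, with a black bar at the list's median. The lowest row gives all tested loci as median, 25th to 75th percentile (thick) and 5th to 95th percentile (thin, -0.71 to 0.75). GBSS1 lies far to the right at 3.04, and root and leaf markers lie mostly to the left of 0.

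Whole seedlings mix organs, and in such RNA fewer cells of a type and less RNA per cell cannot be told apart. Of 9 root markers 7 fell (77.8%, against 19.9% lower over all loci), 0 rose and 2 were not called, with a median of -0.59, CASP1 at -1.06 ± 0.10 and NRT2.1 at -1.50 ± 0.20. Of 12 leaf photosynthesis markers 10 were tested and 70% called (38.4% over all loci). Of these 6 fell, 1 rose and 3 were not called, with a median of -0.46, CA1 at -1.44 ± 0.13 and LHCA4 at 0.32 ± 0.10 (no call without replicate 2 or 3). The medians on arrays 1, 2 and 3 were -0.72, -0.59 and -0.41 for root markers and -0.68, -0.46 and -0.42 for leaf markers. Their part in the clock values was not tested.

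**Figure D5:**
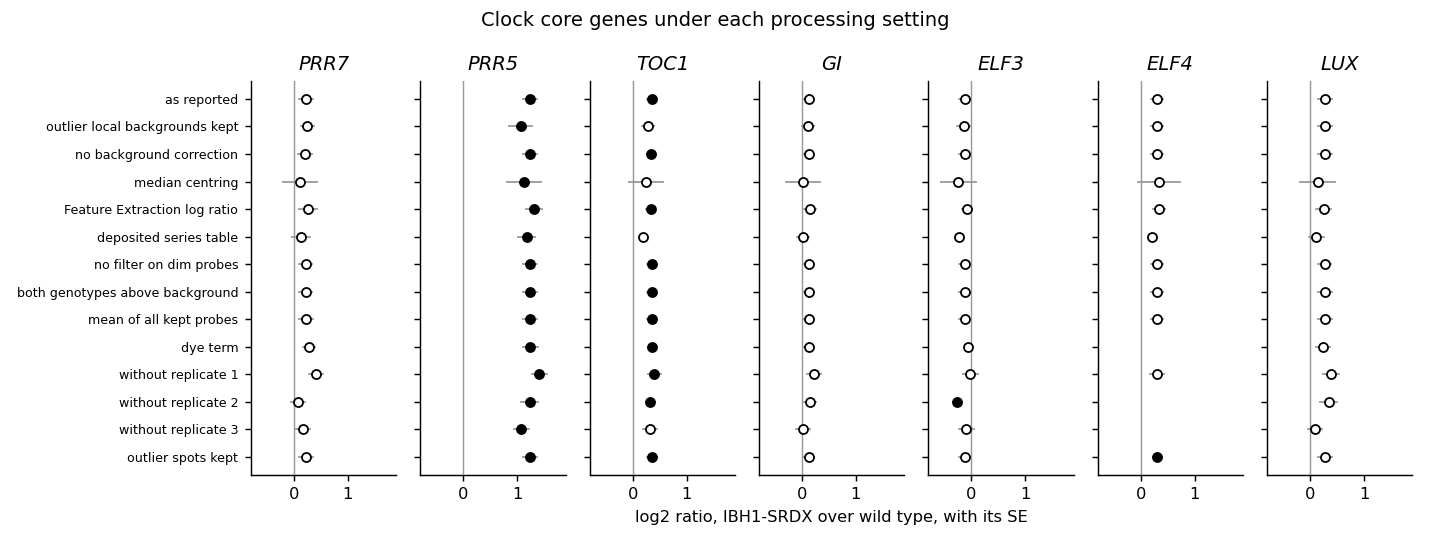
Log2 ratio of IBH1-SRDX over wild type with its SE for the 7 tested core genes, as reported and under 13 other settings, filled where the gene was called. PRR5 is called in every row, TOC1 in 9 of the 13 others, and GI, PRR7 and LUX in none.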

How the data were processed

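The deposited scanner files hold median spot and background intensity in Cy3 and Cy5, flags of 0 or 1, and a log10 ratio (Cy5 to Cy3) that the scanner software computed after background subtraction and dye normalization, per the file headers. That software was Agilent Feature Extraction 9.1.3.1, as the submitters' processing notes also state. Values in the series table were deposited as natural log ratios, whose unit and sign were found here: among probes well above background its slope on the scanner ratios of IBH1-SRDX over wild type was 1.00 on each array, with a constant of -0.0929. Its column medians were 0.00195, -0.225 and 0.00455, and how it was centred stays unknown.

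IBH1-SRDX was labelled with Cy3 on arrays 1 and 3 and with Cy5 on array 2, per the labels, from 1 µg of total RNA. Local backgrounds marked as outliers took the median of the others. Normexp (offset 50) and loess with control spots at weight 0 followed, and control and outlier spots (91 to 189 an array) were left out. A probe entered the test if either genotype was well above background on each of the 3 arrays and values existed on at least 2, and a locus was represented by its brightest probe. Log2 ratios were tested against 0 with limma 3.58.1 in R 4.3.3. Normalised signals per genotype followed loess and Aquantile. The fit was also run on simulated ratios with known answers, few changed loci and no dye effect. That run checks the code and not the calls made here.

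Of 92 listed loci 92 were found in the TAIR10.1 gene table. From each list up to 4 called genes per direction with the smallest adjusted p were eligible for naming, beside any uncalled gene beyond 1 on the log2 scale. Members, lists and settings were chosen with earlier results of these data known. The design text speaks of biological replicates, and says nothing of separate cultures, so p-values measure the spread between these samples. No sequences were used.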

Additional observations from a re-analysis of the deposited data

How the results depend on the processing

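Under 13 other settings PRR5 stayed higher and called (1.06 to 1.41, adjusted p from 1.14e-08 to 0.029, limma), and PRR7 (0.08 to 0.41), GI (0.02 to 0.23) and LUX (0.09 to 0.39) stayed above 0 and uncalled. The lowest PRR5 p came without replicate 3, where the SEs of PRR5, TOC1 and GI were nearly equal (0.136, 0.133 and 0.134). That p rests mostly on the spread pooled over genes. Calls that ended without replicate 3 met a similar SE. LNK1 stood there at 0.25 ± 0.13 (0.25 ± 0.08 on all arrays) and TIC at -0.21 ± 0.13 (-0.25 ± 0.08 on all arrays). None of the 7 tested core genes changed sign. Each array pairs the genotypes, so no further pairing was possible. Transcripts higher and lower were 1143 and 1919 with outlier local backgrounds kept and 591 and 674 with median centring, where the median log2 ratio of the tested loci was -0.35, 0.45 and -0.40 on arrays 1, 2 and 3, and 6369 were lower with the deposited series table. Leaving out 1 replicate gave 2319 to 3883 higher and 2490 to 4294 lower, 1 to 3 core genes called and 13 to 25 genes called in the 4 clock-related lists. Of the core genes 1 was called with outlier local backgrounds kept, with median centring and with the deposited series table. In the 4 lists 6 were called with outlier local backgrounds kept and 2 with median centring, under which 3 of 9 root markers were called as lower. The causes were not tested. ELF4 could not be fitted without replicates 2 or 3 or with a dye term, since too few arrays remained. Signal over background limits CCA1, LHY and PRR9.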

Other observations

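By Euclidean distance over the log2 ratios of the 3 arrays, the tested loci nearest to PRR5 were IAR3 at a distance of 0.05 (0.91, 1.21 and 1.54 on arrays 1, 2 and 3), AT3G26590 at 0.05 (0.94, 1.23 and 1.58) and AT3G07500 at 0.09 (0.96, 1.23 and 1.5). IAR3 encodes an enzyme that releases auxin from a conjugate.

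Some pairs of related clock proteins had like values on arrays 1 and 3 and another on array 2, where the dyes were exchanged. Dye and replicate cannot be told apart with 1 such array. LWD1 stood at 0.69, 0.08 and 0.84 and LWD2 at 0.35, 0.05 and 0.34 on arrays 1, 2 and 3. The casein kinase subunit genes CKB4 and CKB3 stood at 0.40, 0.08 and 0.37, and at 0.40, -0.09 and 0.57. With a dye term LWD1 was 0.42 ± 0.07 and CKB4 0.23 ± 0.06, both called (adjusted p = 0.00601 and adjusted p = 0.0302, limma). LWD2 and CKB3 are named after their values were seen. LNK4, likewise, stood at -0.82 on array 1 against 0.01 and 0.00 on arrays 2 and 3, and was not called.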
